A study of Rattus norvegicus with 8 samples.

Results

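Thyroid hormone acts through nuclear receptors, and the genes described here encode the receptors themselves, the retinoid X receptors (RXRs) with which they pair on DNA, and the coregulators they recruit. They are Thra and Thrb (thyroid hormone receptors), Rxra, Rxrb and Rxrg (RXRs), Ncor1 (a corepressor) and Ncoa1 and Ncoa2 (coactivators). These 8 genes, of 14217 genes named on the array, were taken with every probe set (a group of probes for one transcript) whose annotation gives 1 of these symbols, which gave 18 of 31042 probe sets.

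The arrays hold total RNA labelled as extraocular muscles, the muscles that move the eye, of 8 adult Sprague-Dawley rats of 200 ± 40 g initial body weight, 1 array per rat. The 4 hyperthyroid rats received triiodothyronine (T3, the active hormone) at 25 µg per 100 g body weight into the abdomen every 2 days for 6 weeks, and tissue was taken 24 hours after the last dose. The 4 control rats were untreated, and the labels mention no vehicle injection. Arrays are named by group and title number, hyperthyroid 1, 2, 3 and 5 and control 7, 8, 9 and 11.

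In the absence of hormone, a thyroid hormone receptor bound to DNA with an RXR recruits corepressors such as NCoR1 and its relative SMRT, which carry the histone deacetylase HDAC3 and repress nearby genes. When T3 binds, the corepressors are released and coactivators of the p160 family, to which NCOA1 and NCOA2 belong, take their place together with histone acetyltransferases and the Mediator complex. In skeletal muscle the product of Thra is the main thyroid hormone receptor, and Rxrg is the RXR gene typical of muscle.

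Some arrays stood apart, and this bears on each value below. The markers of hyperthyroid 5 went against its tissue label, which is therefore in doubt. Hyperthyroid 5 had signals of 4.17, 54.2 and 165 for the extraocular and developmental myosins Myh13, Myh8 and Myh3, while the other 7 arrays had at least 5430 for each. Their summed signal was 223 to 36116 on hyperthyroid and 20859 to 31086 on control arrays. The general skeletal muscle markers (5 of 5 measured) summed to 80536 to 113380 on hyperthyroid and 92516 to 117440 on control arrays, so muscle transcripts were abundant on all. The limb-position genes Hoxa9, Hoxa10 and Hoxd8 summed to 1044 on hyperthyroid 5 and to at most 128 elsewhere, and the slow-fibre markers to 35889 against at most 12506. The oligodendrocyte and myelin markers (3 of 4 measured) summed to 76.2 on hyperthyroid 5 and 1052 on hyperthyroid 2, against at least 6725 on the others. Adipocyte markers summed to 129 to 2023 on hyperthyroid and 344 to 869 on control arrays, and leukocyte markers to 627 to 2352 and 752 to 1426. Endothelial markers (3 of 4 measured) summed to 1130 to 1442 on hyperthyroid and 941 to 1103 on control arrays, and epithelial markers (4 of 4) to 18.0 to 326 and 280 to 789. The Gapdh ratio (signal of its 3 prime over its 5 prime probe set), which grows as RNA gets shorter, was 3.91, 4.40, 2.18 and 1.44 on hyperthyroid 1, 2, 3 and 5, against 1.67 to 1.97 on control arrays. It was above every control on hyperthyroid 1, 2 and 3 and lowest on hyperthyroid 5. Fits with this ratio as a covariate therefore cannot separate RNA length from treatment or from hyperthyroid 5, and are given as a description only. In such whole-tissue RNA, fewer cells of a type and less RNA per cell cannot be told apart. Several values that hyperthyroid 5 moved are also given without it.

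Of the 18 probe sets, 11 were bright enough to be tested (a geometric mean over the arrays above about 28.2), and they represent 6 of the 8 genes. The only probe set of Rxra and the only one of Ncoa2 were too dim. None of the 11 passed an adjusted p of 0.05 in limma, where 0% of 18625 probe sets did. The adjusted p ran from 0.371 to 0.975. At an unadjusted p under 0.05, limma called 1 of the 11, a Thrb probe set that was higher, against a background of 6.25% of all probe sets called higher and 5.3% called lower. With each array centred on its median that split was 567 higher and 1623 lower, against 1164 and 987 as deposited. With that centring 0 of the 11 were called. The groups overlapped on all 11 (over all probe sets, 4.33% lay wholly above and 3.23% wholly below the controls). The hyperthyroid minus control differences ran from -0.23 to 0.49 (log2), with a median of 0.10, beside a median of 0.03 over all probe sets tested. Without hyperthyroid 5 these medians were 0.28 and 0.04.

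**Figure D1:**
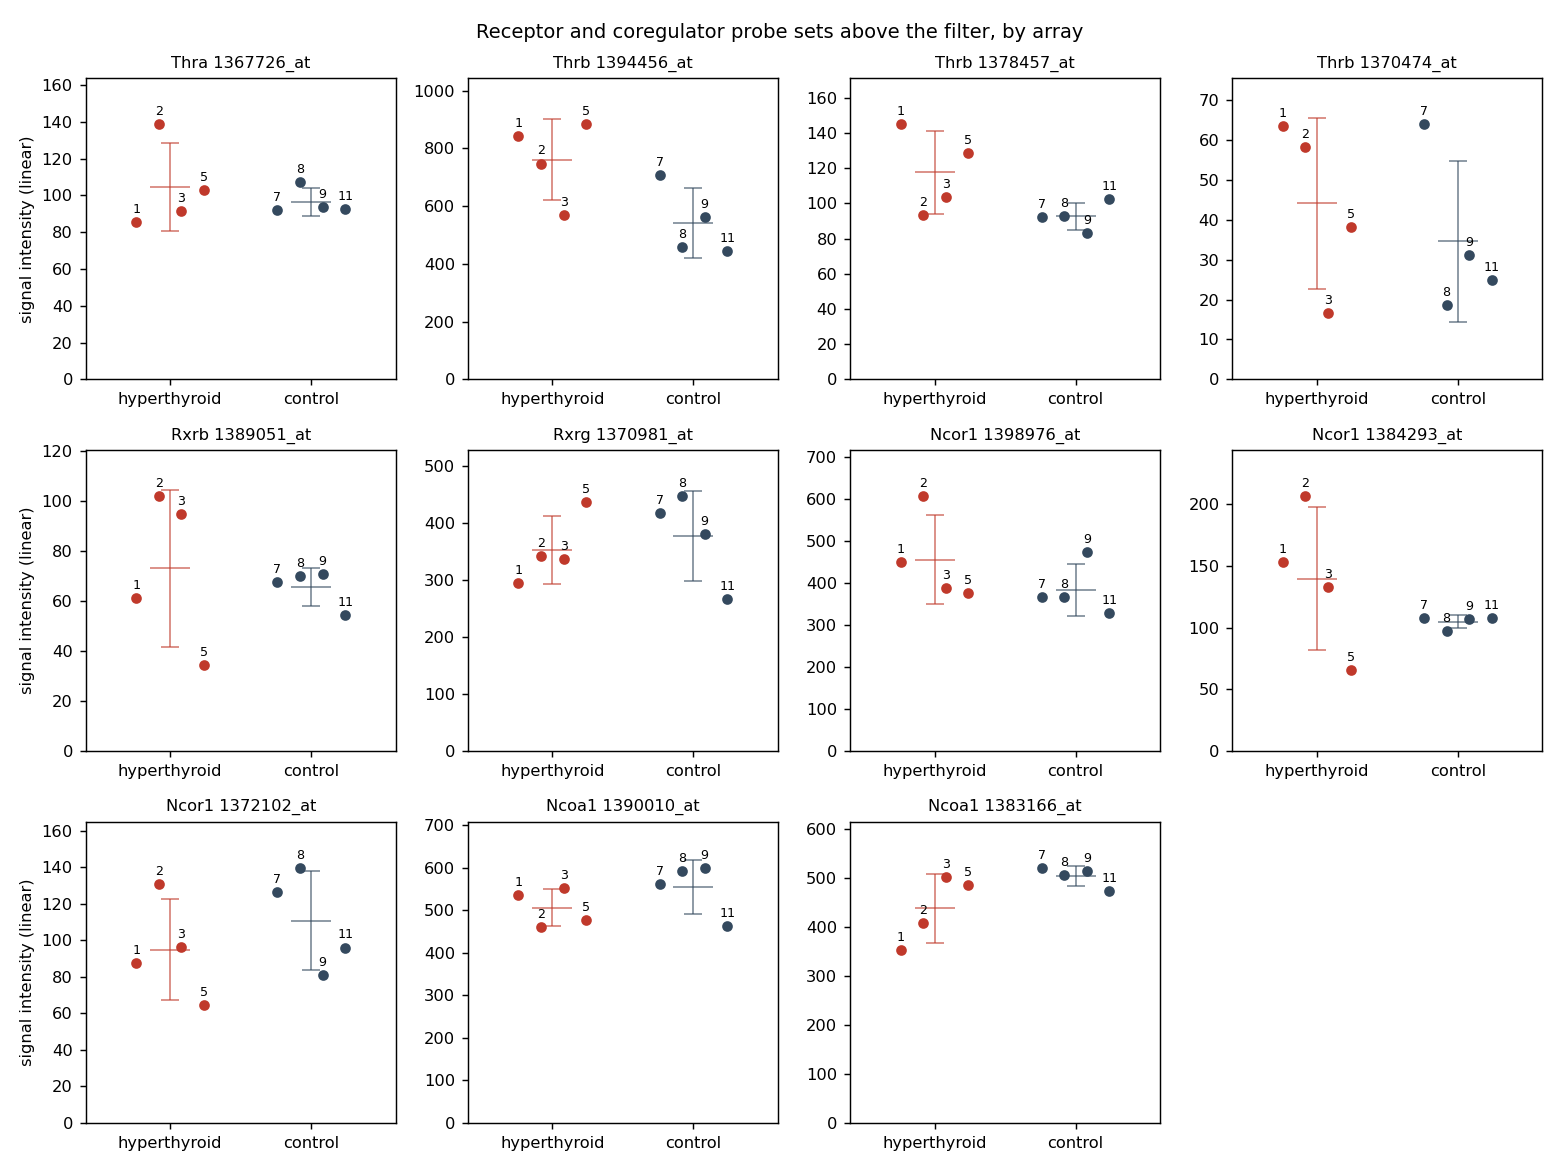
Linear signal intensity (y axis) of the 11 tested probe sets on each array, with hyperthyroid arrays left (red) and control arrays right (blue). Numbers name the arrays, and bars give the mean ± SD of 4 arrays. The groups overlap in every panel, and hyperthyroid 5 is the lowest array for Rxrb, Ncor1 1384293_at and Ncor1 1372102_at.

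Thrb, the gene of thyroid hormone receptor beta, which in the pituitary and liver mediates much of the hormone's feedback and metabolic action, had the largest positive difference among the tested receptor probe sets. Its brightest probe set, 1394456_at, had signals of 844, 747, 567 and 883 on hyperthyroid 1, 2, 3 and 5, against 707, 457, 563 and 445 on control 7, 8, 9 and 11. Of the hyperthyroid arrays, 1, 2 and 5 lay above every control, whereas hyperthyroid 3 lay between control 9 and control 7. The means were 760 ± 141 on the hyperthyroid arrays and 543 ± 121 on the control arrays (n = 4 each, SD). The log2 difference was 0.49 ± 0.19 (SE; 95% interval 0.07 to 0.91; 1.41-fold), with an unadjusted p of 0.0262 and an adjusted p of 0.371 in limma. The difference thus passed 0.05 in the single test and did not pass over all probe sets. Without hyperthyroid 5 it was 0.41 ± 0.19 (limma unadjusted p = 0.0534); a fit that held the Gapdh ratio fixed gave 0.46 (unadjusted p = 0.0668). The limma unadjusted p also exceeded 0.05 without hyperthyroid 1 (0.0676), without control 8 (0.0780) or without control 11 (0.0779). It did so too without hyperthyroid 2 and 5 (0.113), with median centring (0.104), with no mean-variance trend (0.0574) and with array weights (0.0521).

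The second Thrb probe set, 1378457_at, was also higher on average. It had 145, 93.4, 103 and 128 on hyperthyroid 1, 2, 3 and 5, against 92.3, 92.6, 83.2 and 102 on control 7, 8, 9 and 11. Hyperthyroid 1 and 5 were the high arrays on both probe sets, and hyperthyroid 2, high on the first, lay among the controls on the second. The log2 difference of 0.33 ± 0.22 did not pass (limma adjusted p = 0.585). The third, 1370474_at, scattered widely, with 63.5, 58.4, 16.5 and 38.3 on hyperthyroid 1, 2, 3 and 5, against 64.0, 18.6, 31.1 and 24.9 on control 7, 8, 9 and 11. Its difference of 0.34 had a 95% interval of -0.98 to 1.65. The fourth, 1387983_at, was under the filter, at 1.39 to 39.0 on hyperthyroid and 3.15 to 22.1 on control arrays. The 3 tested Thrb probe sets therefore had positive differences, of which none passed the adjusted threshold.

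Thra, the gene of the receptor alpha and, by alternative splicing, of a variant that does not bind T3, had a difference within the spread between arrays. Its brightest probe set, 1367726_at, had signals of 85.8, 139, 91.4 and 103 on hyperthyroid 1, 2, 3 and 5, against 92.1, 107, 93.8 and 92.4 on control 7, 8, 9 and 11. Hyperthyroid 2 was the highest of all arrays and hyperthyroid 1 the lowest, and the 4 controls lay close together. The means were 105 ± 23.8 on the hyperthyroid arrays and 96.4 ± 7.39 on the control arrays (n = 4 each, SD). Its log2 difference was 0.10 ± 0.23 (95% interval -0.41 to 0.60; limma adjusted p = 0.891). Without hyperthyroid 2 the sign turned (-0.048), and with each array centred on its median it was -0.023. The other Thra probe sets were under the filter and gave no steady level. 1370691_a_at ran from 2.86 to 102 on hyperthyroid arrays and from 15.2 to 55.8 on control arrays. 1380518_s_at, whose suffix means that its probes may match more than 1 gene, ran from 2.29 to 22.7 and from 1.46 to 14.1. On both of these dim probe sets hyperthyroid 2 and 3 were above hyperthyroid 1 and 5. In mammals the end of Thra overlaps Nr1d1 on the opposite strand, and which exons each probe set covers was not analysed here.

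The ratio of the brightest Thrb to the brightest Thra probe set within each array, which asks whether the 2 genes changed unequally, was compared by an exact permutation test. The log2 ratio averaged 2.87 ± 0.40 on the hyperthyroid arrays and 2.47 ± 0.37 on the control arrays (n = 4 each, SD). The ratio values themselves depend on the probes and say nothing of which receptor is more abundant. The difference of 0.40 had an exact two-sided permutation p of 0.171 (adjusted p = 0.343 over 4 ratios), where 4 against 4 arrays allow 0.0286 at the least. A shift from one receptor to the other was therefore not resolved.

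**Figure D2:**
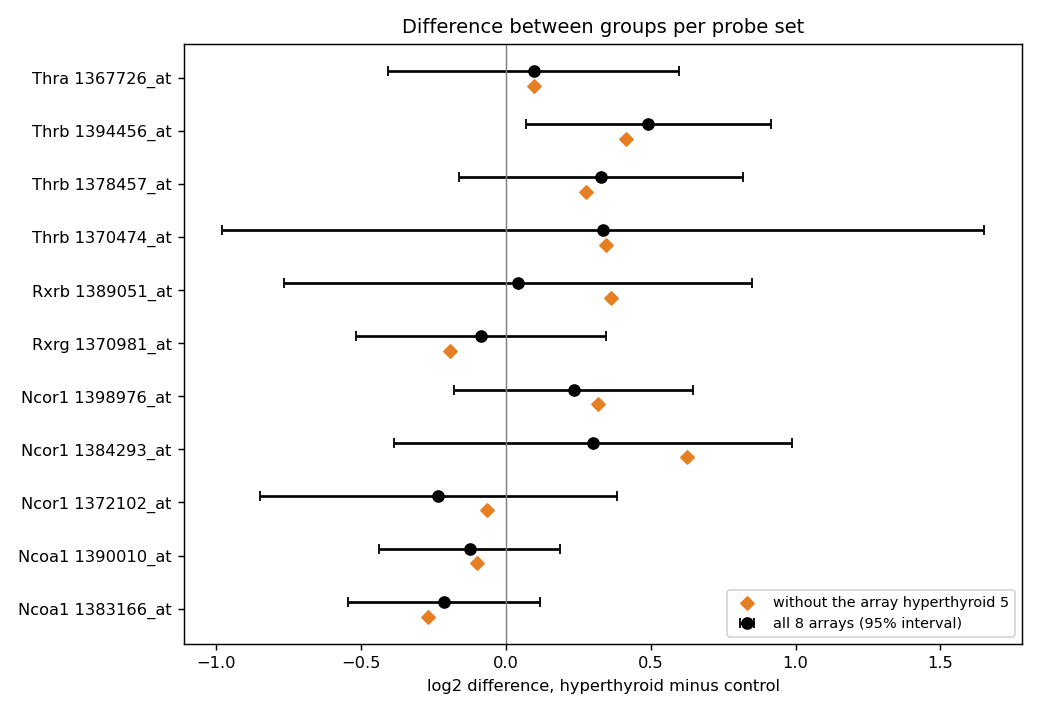
Hyperthyroid minus control difference (x axis, log2 units) of the 11 tested probe sets (rows). Black points with bars are the limma estimate and 95% interval over 8 arrays, and orange diamonds the estimate without hyperthyroid 5. The interval of Thrb 1394456_at alone lies above 0 (0.07 to 0.91), and Rxrb and Ncor1 1384293_at move most between the estimates.

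The promoters of the receptor genes are shown because a receptor gene can itself carry elements that its own protein reads. The consensus half-site of thyroid hormone receptors and RXRs is AGGTCA, and a pair of them 4 bases apart, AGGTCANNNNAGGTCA, is the classical thyroid hormone response element. Rat promoter windows of RefSeq (build GRCr8, 250 bases before to 50 after a start) were matched by symbol for 7 of the 8 genes, with 8 starts since Thra has 2. On either strand, AGGTCA was in 0 of these 8 windows and in 16.2% of all 33469 windows, and the pair was in 0 of 8 and 0.00598% of all. With AGGACA also allowed, 2 of the 8 windows held a match (33% of all), 1 at the second Thra start and 1 at Thrb. In the Thrb window the match, in capitals, is the reverse complement of AGGACA and begins at position -231 from the start. A match is a description of the letters and not a binding site. The Thrb window is chr15:10461397-10461696 (minus strand), the first Thra window chr10:84197891-84198190 (plus strand) and the Rxrg window chr13:82276237-82276536 (plus strand), each printed 5′ to 3′ along its gene:
Thrb: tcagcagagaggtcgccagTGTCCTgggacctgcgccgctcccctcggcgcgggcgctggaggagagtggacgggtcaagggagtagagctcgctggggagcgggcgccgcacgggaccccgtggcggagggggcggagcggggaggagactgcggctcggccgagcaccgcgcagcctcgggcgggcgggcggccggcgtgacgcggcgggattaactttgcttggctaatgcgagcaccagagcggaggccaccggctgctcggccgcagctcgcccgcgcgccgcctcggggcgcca
Thra: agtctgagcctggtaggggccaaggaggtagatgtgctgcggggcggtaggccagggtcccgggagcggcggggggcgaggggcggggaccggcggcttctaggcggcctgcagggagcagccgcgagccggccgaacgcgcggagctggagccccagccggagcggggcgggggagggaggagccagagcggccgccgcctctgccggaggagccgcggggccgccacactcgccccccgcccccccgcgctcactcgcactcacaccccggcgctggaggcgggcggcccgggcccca
Rxrg: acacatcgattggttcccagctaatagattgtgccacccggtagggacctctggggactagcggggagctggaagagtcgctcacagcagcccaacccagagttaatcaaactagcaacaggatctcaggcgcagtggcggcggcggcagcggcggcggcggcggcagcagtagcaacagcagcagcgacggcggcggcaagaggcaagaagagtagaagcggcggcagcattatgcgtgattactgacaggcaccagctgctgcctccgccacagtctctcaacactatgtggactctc
The G and C content was 76% for Thrb, 79.7% for Thra and 60.7% for Rxrg, against a median of 51.7% over all windows.

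Rxrg, the RXR gene typical of muscle, overlapped fully between groups at its brighter probe set. Rxrg 1370981_at had signals of 295, 342, 337 and 437 on hyperthyroid 1, 2, 3 and 5, against 418, 447, 380 and 267 on control 7, 8, 9 and 11. All 4 hyperthyroid arrays lay within the control range, whose ends were control 11 and control 8. The means were 353 ± 60.1 on the hyperthyroid arrays and 378 ± 79.2 on the control arrays (n = 4 each, SD). The log2 difference was -0.09 ± 0.20 (95% interval -0.52 to 0.34; limma adjusted p = 0.882), and it was -0.20 without hyperthyroid 5 and 0.0029 without control 8. The second Rxrg probe set, 1392271_at, was under the filter, with 36.7, 11.6, 47.3 and 6.37 on hyperthyroid 1, 2, 3 and 5, against 31.3 to 41.4 on control arrays. Hyperthyroid 2 and 5 were low on it, while on the bright probe set hyperthyroid 5 was the highest hyperthyroid array, so the pair disagreed on that array.

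Rxrb, the broadly expressed RXR gene, had 1 probe set, 1389051_at. It read 61.2, 102, 94.6 and 34.3 on hyperthyroid 1, 2, 3 and 5, against 67.4, 69.8, 70.6 and 54.4 on control 7, 8, 9 and 11. The hyperthyroid arrays lay on both sides of the controls, with 2 and 3 above them and 5 below. The means were 73.0 ± 31.3 on the hyperthyroid arrays and 65.6 ± 7.54 on the control arrays (n = 4 each, SD), a log2 difference of 0.04 ± 0.37 (95% interval -0.77 to 0.85; limma adjusted p = 0.975). Without hyperthyroid 5 it was 0.36 ± 0.31 (adjusted p = 0.610). With quantile normalization it was -0.020 and with median centring -0.079, so no direction can be given for Rxrb.

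Rxra, the RXR gene that dominates in liver and skin, was represented by 1369101_at alone, which was under the filter. Its signals were 46.1, 9.21, 14.1 and 42.8 on hyperthyroid 1, 2, 3 and 5, against 12.7, 19.1, 26.1 and 6.70 on control 7, 8, 9 and 11. Hyperthyroid 1 and 5 were above all controls and the other 2 within them. With no filter the log2 difference was 0.65 ± 0.84 (limma unadjusted p = 0.452). A ratio of Rxrg to Rxra rests on this dim signal and is not read here.

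**Figure D3:**
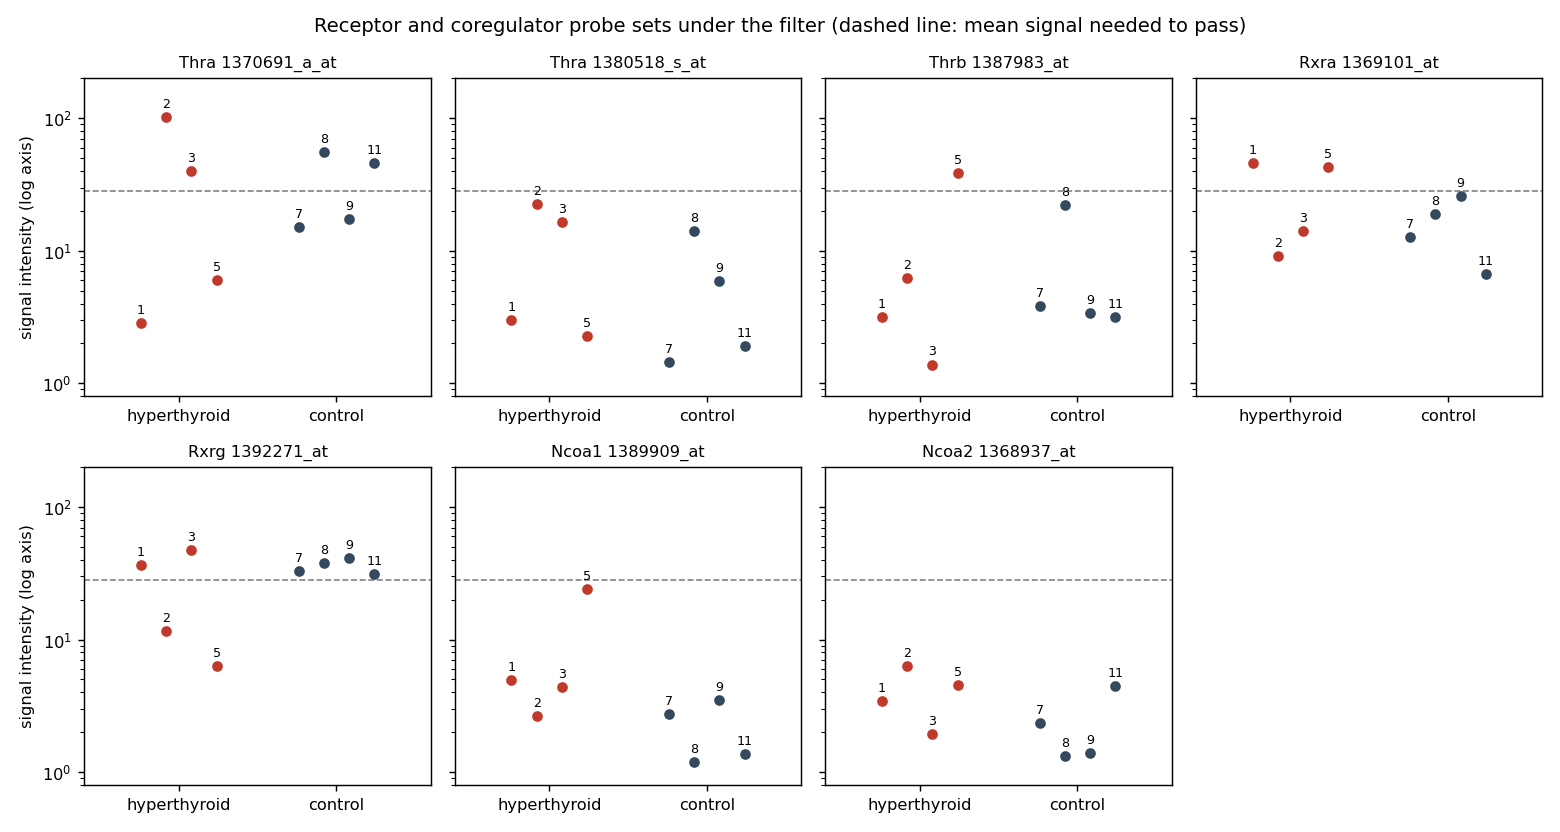
Signal intensity (logarithmic y axis) of the 7 probe sets under the filter on each array, with hyperthyroid left (red) and control right (blue). The dashed line marks a signal of 28.2. Some arrays reach above it, such as hyperthyroid 2 at 102 for Thra 1370691_a_at and all controls for Rxrg 1392271_at (31.3 to 41.4). The single Ncoa2 probe set stays at or below 6.26 on all arrays.

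Ncor1, the corepressor that holds HDAC3 on receptors without hormone, had 3 tested probe sets, with 2 positive differences and 1 negative, none beyond the spread between arrays. The brightest, 1398976_at, had signals of 451, 607, 388 and 377 on hyperthyroid 1, 2, 3 and 5, against 366, 367, 473 and 329 on control 7, 8, 9 and 11. Hyperthyroid 2 was above all controls and the other 3 were inside the control range. Its log2 difference was 0.23 ± 0.19 (95% interval -0.18 to 0.65; limma adjusted p = 0.646). It was 0.087 without hyperthyroid 2 and 0.015 with the Gapdh ratio as covariate.

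The second, 1384293_at, separated most of the arrays. It read 153, 207, 133 and 66.0 on hyperthyroid 1, 2, 3 and 5, against 108, 97.1, 107 and 107 on control 7, 8, 9 and 11. Hyperthyroid 1, 2 and 3 lay above every control and hyperthyroid 5 below every control. The means were 140 ± 58.1 on the hyperthyroid arrays and 105 ± 5.21 on the control arrays (n = 4 each, SD), with a log2 difference of 0.30 ± 0.31 (limma adjusted p = 0.721). Without hyperthyroid 5 the difference was 0.62 ± 0.23 (limma unadjusted p = 0.0176, adjusted p = 0.229). It was then the only one of the 11 whose groups did not overlap and the only one at an unadjusted p under 0.05. In that fit 8.28% of all probe sets lay wholly above the controls and 6.51% wholly below, 7.59% were called higher and 7.66% lower at an unadjusted p under 0.05, and 0.156% passed the adjusted threshold. The Gapdh ratio was also above every control on hyperthyroid 1, 2 and 3. With that ratio as a covariate and hyperthyroid 5 kept, the difference was -0.22, in a fit that cannot separate RNA length from treatment. Without hyperthyroid 2, and with hyperthyroid 5 kept, it was 0.075. Without hyperthyroid 2 and 5 it was 0.45 (limma unadjusted p = 0.0936).

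The third Ncor1 probe set, 1372102_at, had 87.6, 131, 96.0 and 64.8 on hyperthyroid 1, 2, 3 and 5, against 126, 140, 80.7 and 96.0 on control 7, 8, 9 and 11. Its log2 difference was negative (-0.23 ± 0.28; limma adjusted p = 0.762), and it was -0.066 without hyperthyroid 5 and -0.51 with the Gapdh covariate. On each of the 3 probe sets hyperthyroid 2 was the highest and hyperthyroid 5 the lowest hyperthyroid array.

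Ncoa1, which encodes the p160 coactivator SRC-1, had 2 tested probe sets, both slightly lower on average. Ncoa1 1390010_at had 535, 460, 552 and 478 on hyperthyroid 1, 2, 3 and 5, against 562, 591, 600 and 462 on control 7, 8, 9 and 11. The means were 506 ± 44.0 on the hyperthyroid arrays and 554 ± 63.3 on the control arrays (n = 4 each, SD), a log2 difference of -0.13 ± 0.14 (95% interval -0.44 to 0.19; limma adjusted p = 0.747). Control 7, 8 and 9 lay above every hyperthyroid array, and control 11 was about as low as hyperthyroid 2.

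Ncoa1 1383166_at had 353, 409, 503 and 487 on hyperthyroid 1, 2, 3 and 5, against 521, 506, 516 and 474 on control 7, 8, 9 and 11. Hyperthyroid 1 and 2 lay below every control, and 3 and 5 within the control range. The log2 difference was -0.22 ± 0.15 (95% interval -0.55 to 0.12; limma adjusted p = 0.594). With the Gapdh ratio, which was highest on hyperthyroid 1 and 2, as a covariate the difference was -0.07. That fit cannot separate RNA length from treatment, and the part of RNA length was not tested. The third, 1389909_at, was near 0 (1.19 to 4.99) on 7 arrays and 24.2 on hyperthyroid 5.

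Ncoa2, which encodes the related coactivator SRC-2, could not be measured with its 1 probe set, 1368937_at. The signals were 3.44, 6.26, 1.93 and 4.56 on hyperthyroid 1, 2, 3 and 5, against 2.36, 1.32, 1.39 and 4.45 on control 7, 8, 9 and 11. All lay far under the filter, and whether the transcript is scarce or the probes are poor was not tested. The brightest Ncoa1 probe set was also compared with the brightest Ncor1 probe set within arrays. The values of this transcript ratio depend on the probes. The log2 ratio of Ncoa1 to Ncor1 averaged 0.17 ± 0.40 on the hyperthyroid arrays and 0.53 ± 0.15 on the control arrays (n = 4 each, SD; exact two-sided permutation p = 0.143, adjusted p = 0.343). It did not pass, and it turned sign (0.32) when the mean over all probe sets was used. That mean includes Ncoa1 1389909_at, which is under the filter and had a log2 difference of 1.615 ± 0.889 with no filter. A ratio of Ncoa2 to Ncor1 is not read here, since Ncoa2 was not measurable.

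**Figure D4:**
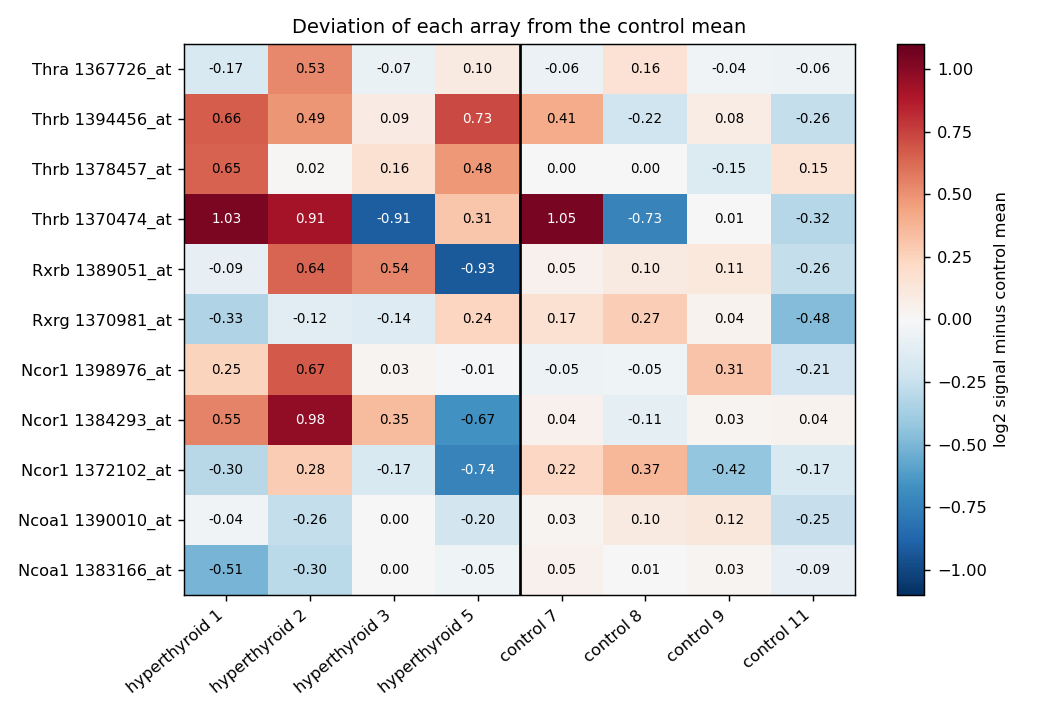
Deviation of each array (columns, hyperthyroid left of the line and control right) from the control mean for the 11 tested probe sets (rows), in log2 units, by colour and number. Hyperthyroid 2 is above the control mean for all Ncor1 probe sets (0.28 to 0.98), and hyperthyroid 5 is at -0.93 for Rxrb and 0.73 for Thrb 1394456_at.

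Within groups, the SD of the signal was larger among hyperthyroid than among control arrays on 9 of the 11 tested probe sets and smaller on 2, which were Rxrg 1370981_at and Ncoa1 1390010_at. This count includes hyperthyroid 5, and the share over all probe sets was not computed. Hyperthyroid 2 was the highest of the 8 arrays on 4 of the 11 probe sets. Hyperthyroid 5 was the lowest on 3, and control 11 was the lowest on as many. The sum of the myelin markers was below every control on both hyperthyroid 2 and hyperthyroid 5, and the part of tissue content in the member signals was not tested.

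The partners of the receptors were described from 4 lists with 33 genes in all, of which 31 had a probe set with 1 symbol and 27 passed the filter at their brightest probe set. Of these 27, 18 were higher and 9 lower on average, and 0 passed the adjusted threshold (limma). At an unadjusted p under 0.05 there were 3 higher and 0 lower, which is 11.1% and close to the 12.2% of all 10446 genes at their brightest probe set. Without hyperthyroid 5 there were 6 higher and 0 lower of the 27, against 16.1% of all genes called in either direction in that fit. The share of genes by direction was not computed. Over all probe sets that fit called 7.59% higher and 7.66% lower. The median log2 difference was 0.12, against 0.01 over all those genes.

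In the corepressor list 7 of 8 genes were tested, 6 were higher on average and 1 lower, and 2 (Tbl1x and Hr) had an unadjusted p under 0.05. Tbl1x, whose product is a core subunit of the NCoR and SMRT complexes, had signals of 202, 125, 243 and 327 on hyperthyroid 1, 2, 3 and 5, against 62.6, 105, 103 and 81.4 on control 7, 8, 9 and 11. All 4 hyperthyroid arrays lay above every control. Its log2 difference was 1.29 ± 0.30 (95% interval 0.64 to 1.95; 2.45-fold), with an unadjusted p of 0.00116 and an adjusted p of 0.223 in limma, and it was 1.08 ± 0.29 without hyperthyroid 5 (adjusted p = 0.135). The other 2 Tbl1x probe sets were under the filter and their differences with no filter were -0.93 ± 0.77 and 0.97 ± 0.81. The smallest adjusted p of Tbl1x over all alternatives was 0.0617 and the largest 0.464.

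Hr encodes a corepressor whose gene is a known T3 target in rat brain. It had signals of 227, 141, 107 and 96.3 on hyperthyroid 1, 2, 3 and 5, against 58.9, 59.6, 78.8 and 60 on control 7, 8, 9 and 11. The groups did not overlap, and hyperthyroid 5 was the hyperthyroid array nearest to the controls. The log2 difference was 1.08 ± 0.30 on all arrays (limma adjusted p = 0.275) and 1.24 ± 0.30 without hyperthyroid 5 (adjusted p = 0.107). With the Gapdh covariate it was 0.73 (limma unadjusted p = 0.0383, adjusted p = 0.342). Hr was highest on hyperthyroid 1 and 2, where the Gapdh ratio was highest too, though Hr was higher on hyperthyroid 1 and the ratio on hyperthyroid 2. The part of RNA length in the Hr difference was not tested. Tbl1xr1, the close relative of Tbl1x, was at 526, 519, 503 and 397 on hyperthyroid 1, 2, 3 and 5, against 390 to 426 on controls, and Hdac3 had a log2 difference of 0.12 ± 0.28.

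Of 9 tested coactivators, 5 were higher and 4 lower on average and 0 had an unadjusted p under 0.05. The smallest p belonged to Ncoa6, the coactivator of a histone methyltransferase complex, with 232, 258, 220 and 244 on hyperthyroid 1, 2, 3 and 5, against 186, 209, 199 and 183 on control 7, 8, 9 and 11. These groups did not overlap, although the log2 difference was small (0.30 ± 0.15; limma adjusted p = 0.482). The acetyltransferases Crebbp and Ep300 were at -0.04 ± 0.20 and 0.04 ± 0.19, and the Mediator subunit Med1, which contacts the hormone-bound receptor, at 0.17 ± 0.16.

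Of 9 tested receptors that pair with RXRs, 5 were higher and 4 lower on average. Rara, the gene of retinoic acid receptor alpha, had 149, 111, 75.4 and 86.9 on hyperthyroid 1, 2, 3 and 5, against 69.1, 27.8, 54.9 and 55.6 on control 7, 8, 9 and 11. The groups did not overlap, and control 8 was the lowest array. Its log2 difference was 1.05 ± 0.35 (95% interval 0.28 to 1.83; limma unadjusted p = 0.0122, adjusted p = 0.331). With the Gapdh covariate it was 0.76 and the call was lost (limma unadjusted p = 0.0889). Rara was highest on hyperthyroid 1 and 2, where the Gapdh ratio was highest too, though Rara was higher on hyperthyroid 1 and the ratio on hyperthyroid 2. The part of RNA length in the Rara difference was not tested. Its relatives Rarb and Rarg were at -0.41 ± 0.35 and 0.17 ± 0.33, and Rarb was at -0.024 without hyperthyroid 5. Of the COUP-TF genes, orphan receptors that compete for the same DNA elements, Nr2f2 had 640, 462, 488 and 343 on hyperthyroid 1, 2, 3 and 5, against 347, 259, 424 and 409 on control 7, 8, 9 and 11. Its log2 difference was 0.42 ± 0.22 on all arrays (limma adjusted p = 0.484) and 0.57 ± 0.20 without hyperthyroid 5 (adjusted p = 0.210), while a dimmer probe set was at 0.14 ± 0.53. The brighter one was at 0.27 without hyperthyroid 1 and without control 8, and at 0.19 with the Gapdh covariate.

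**Figure D5:**
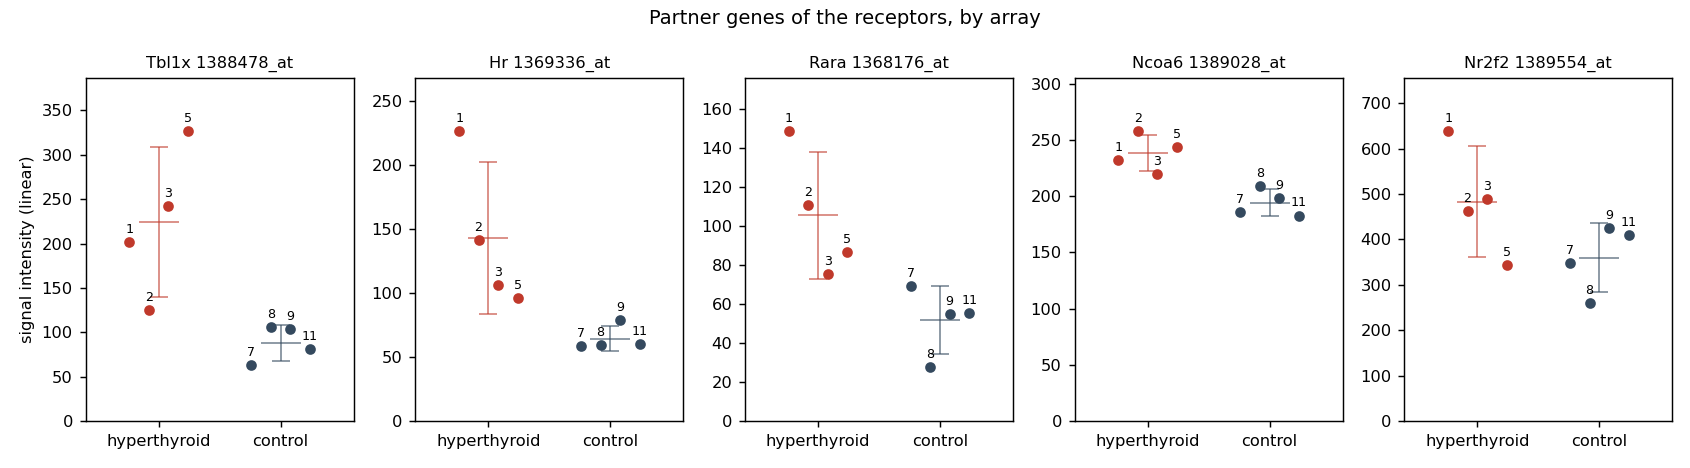
Linear signal intensity (y axis) of Tbl1x, Hr, Rara, Ncoa6 and Nr2f2 on each array, hyperthyroid left (red) and control right (blue), with array numbers and mean ± SD of 4. All 4 hyperthyroid arrays lie above the controls for the first 4 genes, while hyperthyroid 5 falls among the controls for Nr2f2. These genes were picked from 27 tested partners by their p in these data. Over all probe sets tested, 4.33% lay wholly above the controls.

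The genes that followed each receptor most closely over the 8 arrays were sought among 9595 probe sets with an SD of at least 0.3. The measure was the root mean square difference of log2 signals, each centred on its own mean. Thra and Rxrg had SDs of 0.22 and 0.27 (log2), so genes as steady as these receptors were not candidates. For Thrb the closest candidates were Lancl2 (0.11), Hsf2 (0.11) and Wdr41 (0.13), which like Thrb were highest on hyperthyroid 5. For Thra they were Usp7 (0.13), Coq9 (0.13) and Mybpc1 (0.15), highest on hyperthyroid 2. For Rxrb they were Msantd3 (0.15), Prune2 (0.16) and Cxcl12 (0.16), lowest on hyperthyroid 5. For Rxrg they were Per2 (0.15), Mtus1 (0.16) and Gpd1l1 (0.16), and Per2 read 155, 248, 204 and 273 on hyperthyroid 1, 2, 3 and 5, against 235, 273, 271 and 166 on control 7, 8, 9 and 11. For the dim Rxra the closest, Rfc5, was at 0.33. Such lists describe shared ups and downs of 8 arrays, including those of the arrays that stood apart.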

How the data were processed

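The deposited values are linear signal intensities, with 1 value for each probe set on each array, made by the authors with GCOS, per the submitters' processing notes, and scaled to a common level (2% trimmed mean of 150.05 to 150.06 on each array, medians 47.8 to 58.5). Signals were set to at least 1 and taken to log2, the 57 control probe sets were left out, and the upper 60% by mean log2 signal were kept (18625 probe sets). The test between groups of 4 separate rats was limma 3.58.1 under R 4.3.3 (mean-variance trend, two-sided, Benjamini-Hochberg over all probe sets kept, threshold 0.05), and 4 within-array ratios by exact permutation. Gene symbols are those of the platform's annotation, which can be old. The fit was tested on simulated data. The precision is limited by the number of arrays. Members and lists were chosen with earlier results of these data known. Named are all probe sets of the members, list genes at an unadjusted p under 0.05 or with the smallest p of their list, and the 3 genes closest to each receptor (SD of at least 0.3). Tbl1xr1, Hdac3, Crebbp, Ep300, Med1, Rarb and Rarg, and the genes of the closing part, were picked with their values known. Alternatives tried were another normalization, filter or added constant, no mean-variance trend, a robust prior, array weights, the mean over probe sets for the ratios, the Gapdh ratio as a covariate, and fits without 1 or 2 arrays.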

Additional observations from a re-analysis of the deposited data

Results flagged for a closer look

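In 6 of the 46 groups of 4 examined, a single array was set apart from the other 3 relative to the range of its group. That range can be narrow, so the array need not be far off in signal. For normally distributed values this arises in about 1 in 20 groups. Linear signals, above all those under the filter, need not be so distributed, and no excess over chance is read here. Thra 1367726_at read 107 on control 8 and 92.1 to 93.8 on the other controls. Ncor1 1384293_at read 97.1 on control 8 and 107 to 108 on the others. Thrb 1387983_at, under the filter, read 39.0 on hyperthyroid 5 against 1.39 to 6.22 on the other hyperthyroid arrays, and 22.1 on control 8 against 3.15 to 3.84 on the other controls. Ncoa1 1389909_at, also under the filter, read 24.2 on hyperthyroid 5 against 2.64 to 4.99. Hr read 78.8 on control 9 and 58.9 to 60 on the other controls.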

How the results depend on the processing

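With every alternative run, 0 of the member probe sets passed the adjusted threshold. The number of all probe sets that passed was 0 as deposited, 6 with array weights, 8 with the Gapdh ratio as a covariate, 0 to 29 when 1 array was left out (29 without hyperthyroid 5) and 9 without hyperthyroid 2 and 5. Both Ncoa1 probe sets, Thrb 1394456_at (0.37 to 0.63), Thrb 1378457_at, Ncor1 1398976_at and Ncor1 1372102_at kept their direction in each of 18 alternatives, as did Tbl1x (1.05 to 1.75), Hr and Ncoa6. Median centring moved the median over all probe sets to -0.09 from 0.03. Signs turned as follows, and the cause was not tested. With quantile normalization Rxrb was at -0.020. With median centring Thra was at -0.023 and Rxrb at -0.079. With the Gapdh covariate Thrb 1370474_at was at -0.17, Rxrb at -0.35, Rxrg at 0.049 and Ncor1 1384293_at at -0.22. When 1 array was left out Thra ran from -0.048 to 0.18, Rxrb from -0.16 to 0.36 and Rxrg from -0.25 to 0.0029. Without hyperthyroid 2 and 5 Thra was at -0.12. The ratio of Ncoa1 to Ncor1 was 0.32 with the mean over probe sets, and that of Ncoa2 to Ncor1 was -0.15 with 32 added. The ratios with Rxra or Ncoa2 rest on a probe set under the filter. With 1 array left out the ratio differences ran from 0.25 to 0.55 (Thrb to Thra), -1.16 to -0.31 (Rxrg to Rxra), -0.47 to -0.17 (Ncoa1 to Ncor1) and 0.29 to 1.03 (Ncoa2 to Ncor1). No paired analysis was possible because the groups share no replicate number. Differences of dim probe sets are imprecise, and the median difference over all probe sets ran from 0.15 in the dimmest of 5 signal bins to -0.06 in the brightest.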

Other observations

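For several partner genes hyperthyroid 5 lay far from the other hyperthyroid arrays, and the part of its tissue content in this was not tested. Ppargc1a, the coactivator of mitochondrial biogenesis, read 483, 501, 463 and 184 on hyperthyroid 1, 2, 3 and 5, against 450 to 665 on control arrays. Its log2 difference was -0.46 ± 0.30 on all arrays and -0.11 ± 0.16 without hyperthyroid 5. Its relative Ppargc1b read 193, 248, 165 and 42.7 on hyperthyroid 1, 2, 3 and 5, against 122 to 157 on control arrays, so that hyperthyroid 1, 2 and 3 were above and hyperthyroid 5 below every control. The log2 difference of Ppargc1b was -0.04 ± 0.45 on all arrays and 0.52 without hyperthyroid 5. Rarb, the gene of retinoic acid receptor beta, read 65.9 on hyperthyroid 5 and 156 to 259 on the other hyperthyroid arrays, against 169 to 229 on control arrays. Pparg, the adipocyte receptor, read 207 on hyperthyroid 5, where adipocyte markers were also highest, and 33.5 to 93.8 on the other hyperthyroid arrays, against 58.8 to 155 on control arrays. The log2 difference of Pparg was -0.44 ± 0.54 on all arrays. Without hyperthyroid 5 it was -0.95 ± 0.44 (limma unadjusted p = 0.0523, adjusted p = 0.335).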
